A study of Arabidopsis thaliana with 12 samples.

Results

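The genes described here encode 3 proteins that move metabolites across the envelope of the plastid, out of 691 genes that the platform annotation ties to a probe of their own. They were chosen by function, with earlier results of these data known. LrgB (AT1G32080, also called PLGG1) encodes the glycolate and glycerate transporter, AT5G17630 the xylulose phosphate translocator and AT2G32040 a folate transporter. Each gene had a single probe of this kind, so no choice between probes was needed, and no probe shared with other genes listed any of them.

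The samples were total RNA of wild-type Arabidopsis thaliana plants, ecotype Columbia 0. The low CO2 group (6 samples) had spent the last 48 h in air with 0.003% CO2 by volume, and the other 6 samples were from plants at normal CO2. The titles place all low CO2 samples at day 2 and all normal CO2 samples at day 0, so an effect of CO2 and one of time cannot be told apart. The labels give neither the plants' age nor the organ harvested. Nothing in them shows that replicates were grown or extracted separately, and p-values therefore measure only how these samples differ among themselves, which may be a technical spread.

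The chloroplast envelope separates the Calvin-Benson cycle from the rest of the cell, and its inner membrane carries the transporters that decide which metabolites pass. When Rubisco fixes oxygen in place of CO2, which it does more often as CO2 becomes scarce, the product phosphoglycolate is dephosphorylated to glycolate. The glycolate leaves through the LrgB protein, is worked up in peroxisomes and mitochondria, and returns as glycerate through the same protein. The xylulose phosphate translocator exchanges xylulose 5-phosphate and triose phosphates for inorganic phosphate and so joins the pentose phosphate pools on either side of the envelope. Folates carry the single-carbon units used in the mitochondrial step from glycine to serine, and plastids hold folates of their own.

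The 3 genes gave 3 different results. The folate transporter gene fell, its mean deposited intensity at low CO2 being 0.103 of that at normal CO2. By the fold change after quantile normalization the ratio was 0.1425. The glycolate and glycerate transporter gene was dim and rose by the test across all probes, though not under every processing. The xylulose phosphate translocator gene did not pass the test, and its direction was not the same in all samples. Intensities are given as deposited, on a linear scale on which the mean of an array was close to 1. Fold changes are on the log2 scale after quantile normalization, which gives all arrays the same distribution of values. The comparison was made with limma over all 3439 probes, and a p-value adjusted after Benjamini and Hochberg under 0.05 counted as a pass. At that threshold 42.4% of all probes changed, with 18.9% of all probes higher and 23.5% lower at low CO2, so that passing was common in these data. On the deposited scale the split was 373 probes higher and 1302 lower, against 649 higher and 808 lower after quantile normalization.

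**Figure D1:**
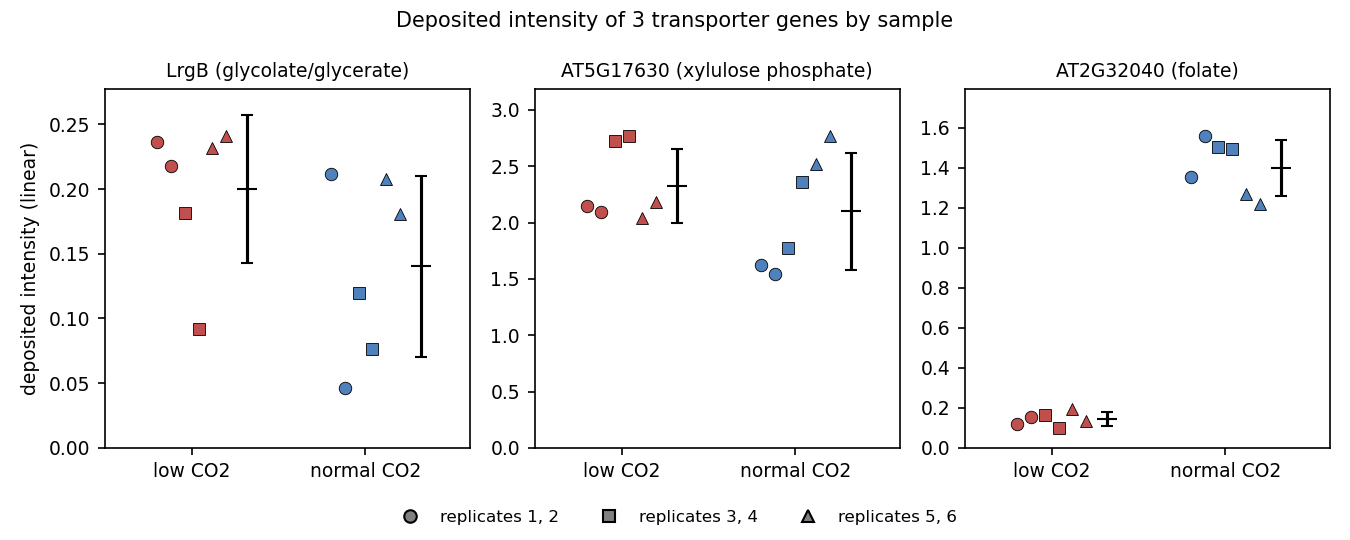
Deposited intensity (vertical axis, linear, from 0) of each gene in the 6 low CO2 and the 6 normal CO2 samples. Points are samples, with a shape for each adjacent pair of replicate numbers, and the bars to their right are the mean and SD. The groups are apart for AT2G32040, at 0.0977 to 0.195 under low CO2 and 1.22 to 1.56 under normal CO2, and overlap for the other genes.

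For AT2G32040, the folate transporter gene, deposited intensities at low CO2 were 0.0977 at the lowest, 0.146 at the median and 0.195 at the highest. At normal CO2 they were 1.22, 1.43 and 1.56. Every low CO2 sample lay below every normal CO2 sample. The means were 0.144 ± 0.0345 at low and 1.40 ± 0.140 at normal CO2 (SD, n = 6 each), a ratio of 0.103. A ratio that low or lower was seen for 2.15% of all probes, and groups that did not overlap, with low CO2 the lower, for 27.3%. In RNA of whole samples, fewer cells of a type and less transcript per cell cannot be told apart.

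The gene also lost its place within each array, a measure that is free of array scaling. Under low CO2 19.9% to 31.5% of the probes of the same array lay below it, against 79.9% to 86.2% under normal CO2. On the log2 scale the change was -2.81 ± 0.16 (SE, limma adjusted p = 4.92e-07), with a 95% interval of -3.16 to -2.46. By p-value it ranked 9 among all 3439 probes, and by fold change 4.13% of probes lay below it. An exact permutation test of the 6 against 6 deposited log2 values gave p = 0.00216 (two-sided), the smallest that this design allows. It treats all samples as independent, which the labels do not show. With adjacent replicate numbers averaged, the exact test gave p = 0.1, the smallest it can give.

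The size of the fall varied among samples. It was seen in 6 of 6 replicate numbers, as were lower values for 40.9% of all probes. Between samples of the same replicate number the normal CO2 intensity was 6.51 to 15.3 times that at low CO2. The smallest of these ratios belonged to number 5 and the largest to number 4. In the adjacent pairs of numbers, means at low and normal CO2 were 0.137 and 1.46 for numbers 1 and 2. They were 0.131 and 1.501 for numbers 3 and 4, and 0.166 and 1.24 for numbers 5 and 6. The pair with the highest low CO2 mean was thus also the one with the lowest normal CO2 mean.

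At low CO2 the folate transporter probe was dim. The 25th percentile of the low CO2 arrays ran from 0.133 to 0.156, which spans the median of this probe there. The table gives no background signal, so how much of the remaining intensity is transcript is not known. The coefficient of variation was 23.9% at low and 9.99% at normal CO2.

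**Figure D2:**
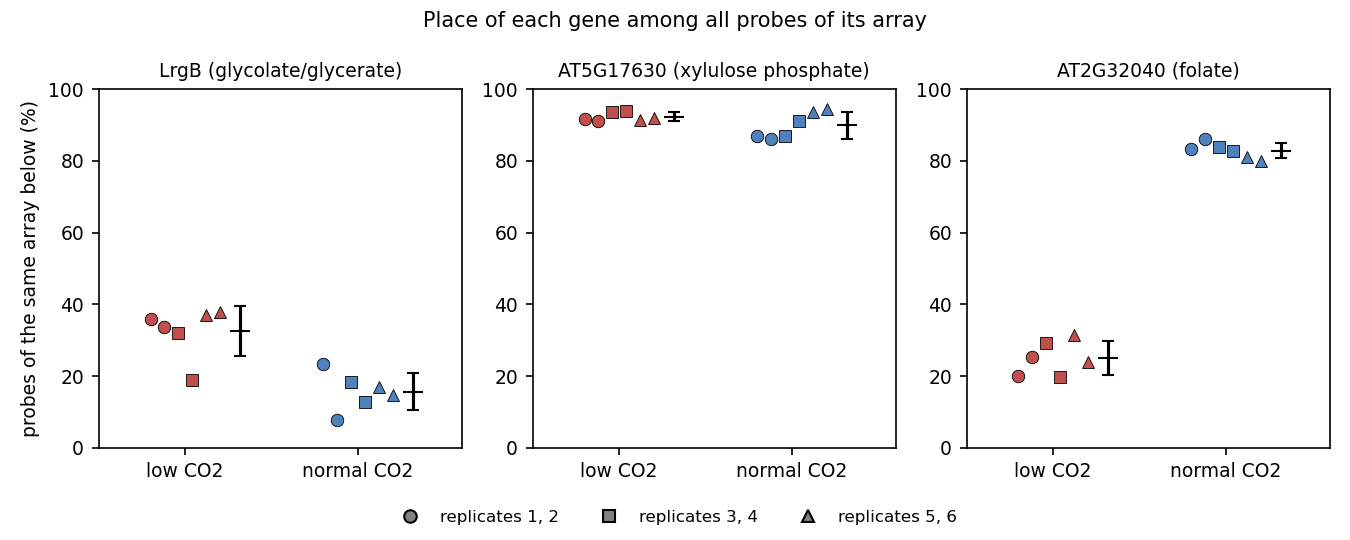
Share of the probes of the same array that lie below each gene (vertical axis, percent), by sample and group, with mean and SD beside the points. The share is free of array scaling. AT2G32040 averaged 24.95% under low and 82.8% under normal CO2, LrgB 32.6% and 15.7%, and AT5G17630 92.3% and 89.9%.

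For LrgB, the photorespiratory glycolate and glycerate transporter gene, deposited intensities at low CO2 were 0.0916 at the lowest, 0.225 at the median and 0.241 at the highest. At normal CO2 they were 0.0466, 0.150 and 0.212. The groups overlapped, although 4 of the 6 low CO2 samples lay above all normal CO2 samples. The low CO2 sample that stood lowest was replicate 4, and the other low CO2 samples began at 0.181. The ratio of the deposited means was 1.42.

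Compared by replicate number, LrgB was higher at low CO2 in 6 of 6 numbers, which 13.5% of all probes also were. The excess was small in most of them, with ratios of 1.12 in numbers 1 and 5, 1.19 in number 4, 1.34 in number 6 and 1.51 in number 3. In number 2 the ratio was 4.68, where normal CO2 replicate 2 had the lowest intensity of all 12 samples, 0.0466. An exact permutation test that swaps the groups within replicate numbers gave p = 0.0312 on deposited log2 values, the smallest it can give, while the unpaired exact test gave p = 0.160. On normalized log2 values the unpaired exact test gave p = 0.00433. With adjacent replicate numbers averaged, the unpaired exact test gave p = 0.2 on deposited and p = 0.1 on normalized log2 values. The smallest it can give is 0.1. Whether equal numbers pair the samples is not known, which limits the test within numbers.

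**Figure D3:**
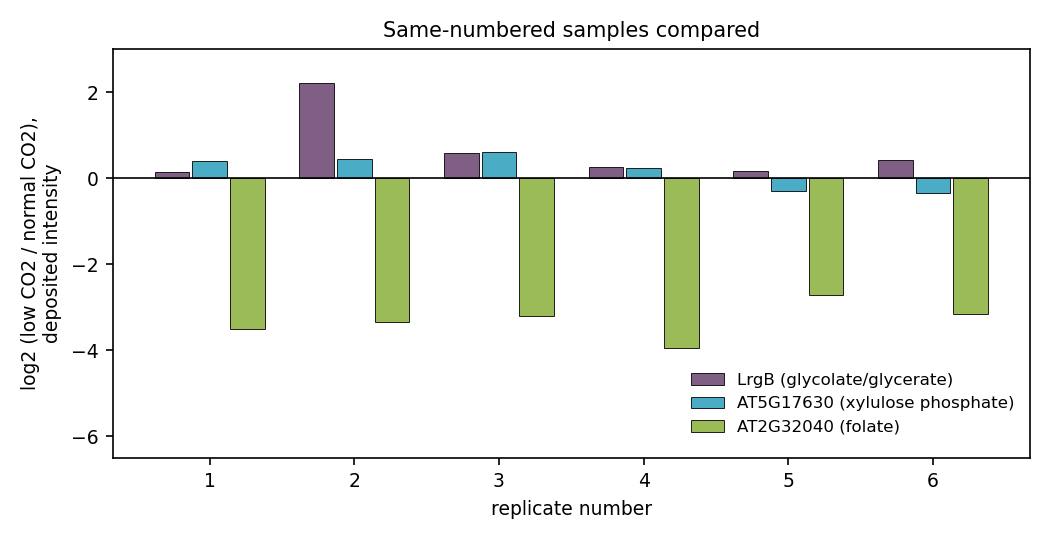
Log2 ratio of deposited intensity, low CO2 over normal CO2 (vertical axis), between samples of the same replicate number (horizontal axis), as a bar for each gene. LrgB is above 0 in all 6 numbers, AT2G32040 is below 0 in all 6, and AT5G17630 is above 0 in numbers 1 to 4 and below 0 in numbers 5 and 6.

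Relative to the other probes LrgB moved further than on the deposited scale. Array medians were lower at low CO2, at 0.343 to 0.373 against 0.489 to 0.576. The 25th percentiles were lower too, at 0.133 to 0.156 against 0.176 to 0.292. Low CO2 arrays held 187 to 302 values of 0, against 129 to 174 at normal CO2. The part of these differences in the values of this dim probe was not tested. Between 18.9% and 38.0% of the probes of an array lay below LrgB at low CO2, against 7.82% to 23.3% at normal CO2. After quantile normalization its log2 fold change was 1.57 ± 0.49 (SE, limma adjusted p = 0.0231), with a 95% interval of 0.49 to 2.65, and 89.1% of all probes had a lower fold change. Without normal CO2 replicate 2 the value was 1.12 (limma adjusted p = 0.00689).

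The call for LrgB was lost on the deposited scale (0.63, limma adjusted p = 0.218), where 48.7% of all probes passed, and with 75th percentile scaling (1.03, adjusted p = 0.0634). It was also lost with adjacent replicate numbers as a random block (adjusted p = 0.202), where 29.3% passed, with adjacent numbers averaged and blocked by pair (adjusted p = 0.0745) and without numbers 5 and 6 of both groups (1.77, adjusted p = 0.140). Its coefficient of variation was 28.7% at low and 49.8% at normal CO2.

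For AT5G17630, the xylulose phosphate translocator gene, deposited intensities at low CO2 were 2.04 at the lowest, 2.17 at the median and 2.77 at the highest. At normal CO2 they were 1.54, 2.07 and 2.77. The low CO2 values lay within the range of the normal CO2 values. The means were 2.33 ± 0.329 and 2.10 ± 0.517 (SD, n = 6 each), a ratio of 1.11. The log2 fold change of 0.26 ± 0.20 did not pass (SE, limma adjusted p = 0.321), and its 95% interval, -0.18 to 0.69, holds values on both sides of 0. Of all probes, 18.6% had a fold change of that size or smaller in either direction.

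The values of AT5G17630 varied with the adjacent pair of numbers. For numbers 1 and 2 the mean was 2.12 at low and 1.58 at normal CO2, and for numbers 3 and 4 it was 2.74 and 2.07. For numbers 5 and 6 it was 2.11 at low and 2.64 at normal CO2, so that the ratio was 1.34, 1.33 and 0.798 in the 3 pairs. The difference between pairs was not tested. Leaving out numbers 5 and 6 of both groups gave a log2 fold change of 0.56 (limma adjusted p = 0.0522), against 0.12 without numbers 1 and 2 and 0.10 without numbers 3 and 4.

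The scaling decided whether AT5G17630 passed. With arrays set to equal medians its log2 fold change was 0.70 (limma adjusted p = 0.00418) and with equal 75th percentiles 0.57 (adjusted p = 0.0127), while it was 0.17 on the deposited scale (adjusted p = 0.436) and 0.33 after cyclic loess (adjusted p = 0.149). In terms of its place in the array, 91.0% to 93.9% of probes lay below it at low CO2 and 86.0% to 94.5% at normal CO2.

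**Figure D4:**
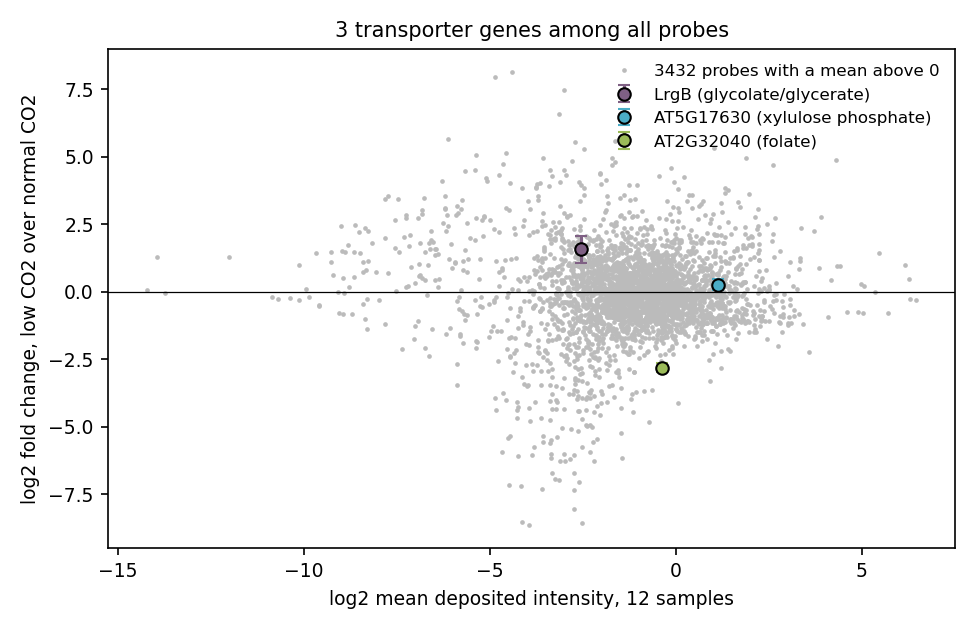
Log2 fold change, low CO2 over normal CO2 after quantile normalization (vertical axis), against the log2 mean deposited intensity of 12 samples (horizontal axis), for the probes with a mean above 0 (grey) and the 3 genes (coloured, with SE). AT2G32040 at -2.81 lies below most probes of its intensity, LrgB at 1.57 is among dim probes of wide spread, and AT5G17630 at 0.26 is close to 0.

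Within an array the ratio of 2 probes does not depend on scaling, and shows only how unequally they changed. The log2 ratio of AT2G32040 over AT5G17630 was -4.82 to -3.39 at low CO2 and -1.19 to 0.01 at normal CO2, with no overlap. That of AT2G32040 over LrgB was -0.99 to 0.09 at low CO2 and 2.61 to 5.07 at normal CO2, again with no overlap. For LrgB over AT5G17630 the ranges were -4.92 to -3.14 at low and -5.05 to -2.94 at normal CO2, and the low CO2 values lay within the normal CO2 range. The groups were already apart for AT2G32040 alone, so the lack of overlap in its ratios is no separate result. How often ratios of other probes lack overlap was not worked out. The ratio of LrgB over AT5G17630 did not separate the groups.

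Fold changes in this table also followed the number of the probe, in a pattern that repeats along the numbering, here divided into 48 bins. The bin of AT2G32040 had a median log2 fold change of -0.75 over 71 probes, and 4 of them lay below the gene. The bin of LrgB had a median of 0.38 over 77 probes, 8 of them above the gene, and that of AT5G17630 a median of 0.42 over 69 probes, 37 of them above it. When the median deviation of a bin was subtracted in each sample, which left 37.5% of all probes past the threshold, AT2G32040 changed by -2.04 (limma adjusted p = 3.61e-06) and LrgB was at 1.21 (adjusted p = 0.0982). AT5G17630 turned to -0.12 (adjusted p = 0.695). The part of the place in these values beyond this step was not tested.

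**Figure D5:**
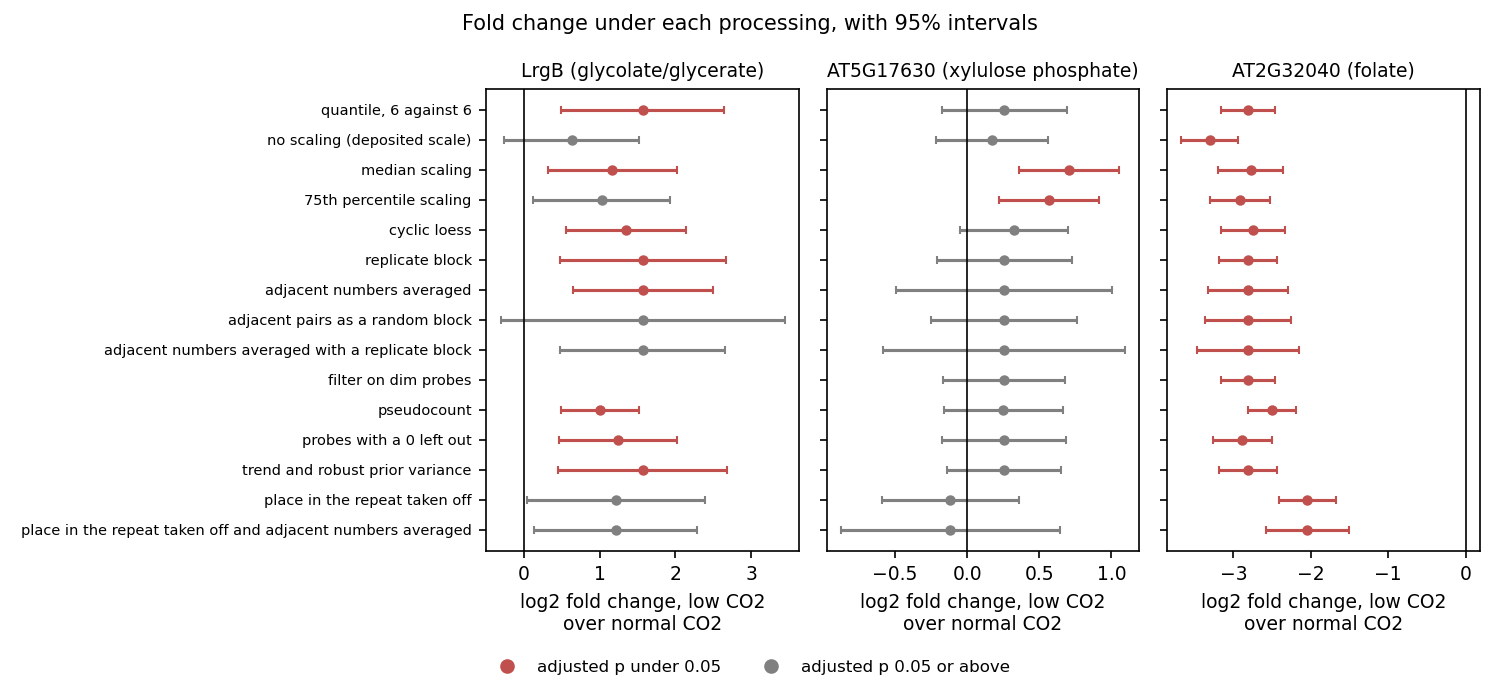
Log2 fold change of each gene, low CO2 over normal CO2 (horizontal axis), under 15 ways of processing (rows), with 95% intervals from limma. Red marks an adjusted p under 0.05. AT2G32040 stays between -3.31 and -2.04, and AT5G17630 lies between -0.12 and 0.70. The points of LrgB are above 0 throughout, with intervals of differing width. Its interval reaches down to -0.26 on the deposited scale and to -0.30 with adjacent pairs as a random block. LrgB has no value in the row that leaves out dim probes.

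Of 36 envelope transporter genes listed, the 3 described were the ones with a probe of their own, and another was on a probe shared with other genes and is not named. With 1 gene higher, 1 lower and 1 not past the threshold, the list had a median of 0.26, against -0.05 for all probes. That median is the value of AT5G17630 itself and shows no shift of the list. LrgB was also the only one of 25 photorespiration genes listed with a probe of its own, and AT2G32040 the only one of 18 folate genes, of which 2 more were on shared probes. Of 16 pentose phosphate genes listed, 4 had a probe of their own, 2 fell and 2, AT5G17630 among them, did not pass. Over all probes 23.5% fell and 42.4% changed in either direction, so little can be read from 2 of 4.

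The genes that fell were PRK and SBPASE, both of the Calvin-Benson cycle. PRK, which encodes phosphoribulokinase, had intensities of 0.820 to 1.02 at low and 1.36 to 2.44 at normal CO2, with no overlap. SBPASE, which encodes sedoheptulose-bisphosphatase, had 0.225 to 0.418 at low and 0.595 to 0.982 at normal CO2, with no overlap either, as was the case, with low CO2 the lower, for 27.3% of all probes. Their log2 fold changes were -0.73 ± 0.17 and -0.68 ± 0.17 (SE, limma adjusted p = 0.00451 and 0.00626). With adjacent numbers averaged neither passed (adjusted p = 0.110 and 0.0996), whereas AT2G32040 did (adjusted p = 0.00542), as did LrgB (0.0413), where 18.0% of all probes passed. With the place in the probe numbering taken off, PRK was at -0.39 (limma adjusted p = 0.0275) and SBPASE at -0.13 and past the threshold no longer (adjusted p = 0.485). AT1G12230, encoding a transaldolase, had a median of 0 at low and 0.0296 at normal CO2, too dim for a fold change to be read.

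The leaf markers listed were 15 genes of Rubisco small subunits and light-harvesting proteins, and LHB1B2 alone had a probe of its own. LHB1B2, a light-harvesting protein gene, had intensities of 2.26 to 4.28 at low and 5.02 to 8.71 at normal CO2. It fell, its log2 fold change being -0.97 ± 0.19 (SE; adjusted p = 0.00178 by limma), and did not pass with adjacent numbers averaged (adjusted p = 0.0802). With the place in the probe numbering taken off, LHB1B2 was at -0.41 (limma adjusted p = 0.0373). This marker thus moved in the same direction as AT2G32040, and its part in that result was not tested. Photosynthesis genes outside the list did not all fall. NdhS was higher at low CO2 (log2 fold change 1.69, limma adjusted p = 0.00198) and PSAN did not pass (-0.19, adjusted p = 0.662). Such genes were not surveyed as a set. None of the 7 root and 7 seed markers had a probe of its own.

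The profile of AT2G32040 across the 12 samples was most like that of DRT101, GLDH and AT1G04420, with Pearson correlations of 0.992, 0.980 and 0.975 of normalized log2 values. These values share the difference between the groups. For deviations from the group means the correlations were 0.71, 0.44 and 0.39. GLDH encodes the enzyme of the last step of ascorbate synthesis and AT1G04420 an aldo-keto reductase. The log2 fold changes of these genes were -1.45, -1.15 and -1.88, all smaller than that of AT2G32040.

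The profile of LrgB was most like those of AT2G22050 (correlation of 0.92, and 0.87 for deviations from the group means), AT2G38570 (0.84 and 0.73) and AT5G66050 (0.84 and 0.74). None of these genes passed the threshold, with adjusted p from 0.0519 to 0.0810 by limma. They were picked as the highest correlations among probes of 1 gene. The correlations include normal CO2 replicate 2, where LrgB was lowest after normalization (log2 value of -5.90, the next at -3.73), and were not worked out without it. For AT5G17630 the closest were AT5G02850 (0.91 and 0.90), DRT100 (0.89 and 0.90) and AT2G46300 (0.86 and 0.84). AT5G02850 and DRT100 had values of 0 in 3 samples and in 1 sample, so their correlations rest in part on replaced values. Among the 3 transporter genes the deviations from the group means correlated at 0.15 for LrgB with AT5G17630, -0.11 for LrgB with AT2G32040 and -0.43 for AT5G17630 with AT2G32040, all over 12 samples.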

How the data were processed

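The deposited table holds intensity values of 3439 probes on 12 arrays, on a linear scale with an upper bound of 100. For the background correction and scaling by the authors, the sources used here give no account. Genes were named from a platform annotation with 692 probes of 1 gene, of which 690 matched TAIR10.1. Each 0 was replaced by its array's smallest positive value before log2, and arrays were quantile normalized. The comparison used limma 3.58.1 (lmFit and eBayes, two-sided, no block) under R 4.3.3, and the procedure was tested on simulated data. The simulated samples were independent of each other, so that test cannot check the p-values where adjacent replicate numbers are correlated.

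The genes, lists and tests were chosen with earlier results of these data known. Named beside the members were all measured genes of each list, the photosynthesis genes NdhS and PSAN, and the 3 genes most like each member. The genes most like a member were sought among the 692 probes of 1 gene. A list of transporters by words in gene descriptions could not be made, as the annotation holds none. Replicate numbers come from the titles. Deviations of same-numbered samples correlated at 0.128 to 0.214 across groups, every number above 0.1. Correlations of differently numbered samples across groups were not set beside these, so they do not establish that the numbers pair the samples. Deviations of adjacent numbers within a group correlated at -0.077 to 0.437, the highest for numbers 5 and 6 at normal CO2. Alternatives were 4 other scalings, a replicate block, averages or a random block over adjacent numbers (within which limma estimated a correlation of 0.567), a filter at the 25th percentile of mean signal, a pseudocount of 0.0493, probes with a 0 left out, another prior variance, the place in the probe numbering taken off, and samples or pairs left out. The number of arrays limits the precision.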

Additional observations from a re-analysis of the deposited data

Results flagged for a closer look

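In 2 of the 6 sets of 6 values tested, a sample stood apart from its group, where chance gives about 0.3. Both were values of LrgB, and the test was made on quantile normalized log2 values. At low CO2 the sample was replicate 4, with a deposited intensity of 0.0916, where the other 5 began at 0.181. Its gap to the nearest sample made up 0.743 of the group's range of normalized log2 values and 0.705 of the range of deposited log2 values. At normal CO2 it was replicate 2, with a deposited intensity of 0.0466, where the other 5 began at 0.0768. Its gap made up 0.656 of the normalized log2 range but 0.330 of the deposited log2 range, so this sample stood apart after normalization and not on the deposited scale.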

How the results depend on the processing

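The fall of AT2G32040 passed under all 29 alternatives, with log2 fold changes of -3.31 to -2.04 and limma adjusted p up to 0.0442, and between -2.90 and -2.71 with 1 sample left out. LrgB kept its direction under all 28 that gave a value and passed under 21. The exceptions were the deposited scale (0.63), 75th percentile scaling (1.03), adjacent numbers as a random block or averaged with a replicate block (1.57 each), the place in the numbering taken off (1.21, also with adjacent numbers averaged) and numbers 5 and 6 left out (1.77). The filter on dim probes removed it. With 1 sample left out it ran from 1.12 to 1.81 and passed each time. AT5G17630 passed with median (0.70) and 75th percentile scaling (0.57), turned to -0.12 with the place taken off, with and without averaging, and ran from 0.17 to 0.38 with 1 sample left out. The replicate block alone changed no call of the 3 genes (limma adjusted p = 0.0304 for LrgB, 0.312 for AT5G17630 and 0.000132 for AT2G32040). The count of changed probes, 1457, was 618 with adjacent numbers averaged, 375 with a replicate block as well, 454 with averaging and the place taken off, and 1332 to 1425 with 1 sample left out. On the deposited scale 373 probes were higher and 1302 lower, against 649 and 808, and the median of all probes was at -0.60 against -0.05. With median scaling 724 were higher and 703 lower. The causes were not tested, and no signal over background could be given.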
